A study of Mus musculus with 43 samples.

Results

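Collagens are the rod-shaped proteins that make up most of the extracellular matrix, and the mouse genome encodes them in a family of numbered genes, each for a single alpha chain. The chains treated here are the 44 gene symbols that have the form Col, a number, the letter a and a number, and they were taken from the 26264 symbols of every deposited count table. Gene-level RNA-seq counts were available for 43 mouse libraries in 15 groups and 6 count tables. The study set cultures with more or less RUNX1 and RUNX2 beside inguinal white fat (iWAT) from mice lacking either gene in fat cells. RUNX1 and RUNX2 are transcription factors, and RUNX2 is best known as a regulator of bone formation.

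The cultures came from a cell line labelled BAT that was differentiated into brown adipocytes. An empty-vector control, RUNX1 overexpression and RUNX2 overexpression had 3 libraries each and share a table. Another table held a wild-type knockout control, a Runx1 knockout, a Runx2 knockout and a double knockout of both genes, again with 3 libraries each. A further table held cultures labelled full-length Runx2 and cultures whose Runx2 had its IDR deleted, with 2 libraries each and no vector control; IDR is the usual abbreviation for an intrinsically disordered region. In mice, Adipoq-cre:Runx1 KO was set against Runx1 flox and Adipoq-cre:Runx2 KO against Runx2 flox, with 3 iWAT libraries per group. The last table held iWAT with the label HFD, from 3 WT and 3 Runx1 knockout libraries. Cre driven by the Adipoq promoter acts in adipocytes, so fibroblasts, vessels and leukocytes of the fat pad keep both genes, whereas each library is made from the whole sample. No age, sex or diet composition was used here. The labels do not say whether replicates were separate cultures or animals, so every p-value measures the spread between these libraries, which may be technical.

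Collagen chains assemble as triple helices. Fibrillar collagens such as types I, III and V form the tensile fibres, FACIT collagens sit on fibre surfaces, type VI forms beaded filaments around cells, and type IV forms the sheet of the basement membrane that wraps each adipocyte. Adipocytes secrete type IV and type VI collagens, and much of the type I and type III collagen of a fat pad comes from its fibroblasts. In bulk RNA, fewer cells of a type and less RNA per cell cannot be told apart.

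Libraries held between 28092201 and 52171378 counts. The vector libraries had 5.73, 4.26 and 6.70 Runx1 CPM (CPM being counts scaled to library size, here with TMM factors) and the RUNX1 overexpression libraries 66.9, 68.8 and 85.8. Runx2 stood at 7.74, 9.29 and 9.28 CPM with vector and 281, 332 and 313 with RUNX2 overexpression. Runx1 stood at 2.80, 8.0 and 4.91 CPM in the control cultures and 4.75, 4.81 and 6.74 in the Runx1 knockout, and Runx2 at 6.82, 7.13 and 9.18 in the control and 8.67, 6.83 and 7.32 in the Runx2 knockout. These ranges overlapped, and counts over a whole gene do not check a small deletion, so the knockout names are those of the labels. Runx1 in iWAT was at 25.2, 28.4 and 42.8 CPM with flox and 20.7, 20.7 and 21.4 with the knockout, whereas Runx2 (15, 10.5 and 4.19 against 3.82, 6.74 and 2.40) and Runx1 with the HFD label (8.68, 16.7 and 17.9 against 13, 13.9 and 8.15) overlapped in whole fat. Adipocyte markers summed to between 4370 and 67650 CPM over all groups, and the 6 endothelial markers, at 619 or more in iWAT, summed to at most 21.9 in any culture. Cardiac muscle markers reached 100.5 and 397.5 CPM in vector replicates 1 and 2 and 1519 in RUNX1 replicate 3, against at most 4.84 in the other overexpression libraries. Skeletal muscle markers reached 6670 CPM in Runx1 flox replicate 2 and 15260 and 7158 in Runx1 knockout iWAT replicates 2 and 3, and 6853 in Runx2 flox replicate 3. In the double knockout, replicate 1 had an adipocyte marker sum of 18140 CPM against 9554 and 9101. Among the Runx2 flox libraries, replicate 3 had 57530 against 23620 and 25530. The part of these differences in the results below was not tested, beyond the values without those libraries.

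Collagen mRNA was far more abundant when either RUNX protein was overexpressed. The 44 genes took 0.541% to 0.747% of all counts with vector, 1.82% to 1.90% with RUNX1 and 2.84% to 2.92% with RUNX2, so the 3 groups did not overlap. In the knockout table they took 0.432% to 0.467% in the control, 0.619% to 0.633% in the Runx1 knockout and 0.466% to 0.527% in the Runx2 knockout. The double knockout libraries stood at 0.347%, 0.786% and 0.848%, and its low library is the one with the high adipocyte marker sum. With 3 libraries against 3, an exact two-sided permutation test cannot go below p = 0.1, the value reached by both overexpressed groups against vector, by RUNX2 against RUNX1 and by the Runx1 knockout against its control. The iWAT libraries ranged from 0.219% to 1.15% and their groups overlapped in each comparison.

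**Figure D1:**
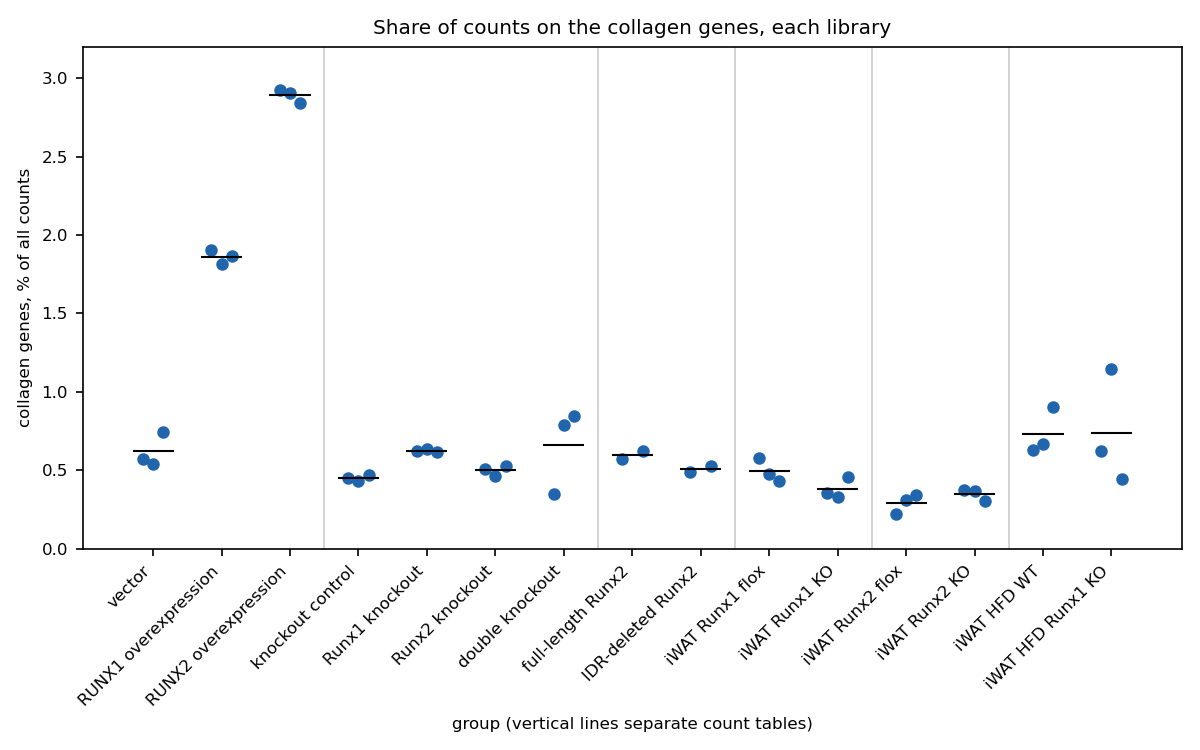
Share of each library's counts that fell on the 44 collagen genes (y axis, percent of all counts) by group (x axis), with 1 point per library and a line at the group mean. RUNX1 and RUNX2 overexpression libraries sit at 1.82% to 2.92%, above every other library in the plot.

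Gene by gene, collagens were called changed when edgeR's quasi-likelihood test gave an adjusted p below 0.05 over all genes tested. In RUNX1 overexpression 38 collagens had enough counts to be tested, 21 rose and 6 fell, where 54.0% of all 14661 genes tested were called in either direction, 28.2% higher and 25.8% lower. In RUNX2 overexpression 27 rose and 5 fell, against 60.9% of all genes called, 31.3% higher and 29.6% lower. The median log2 fold change of the tested collagens was 1.17 with RUNX1 and 1.89 with RUNX2, against 0.06 and 0.03 over all genes tested. Both comparisons use the same vector libraries. The 21 collagens that rose with RUNX1 all rose with RUNX2 as well.

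**Figure D2:**
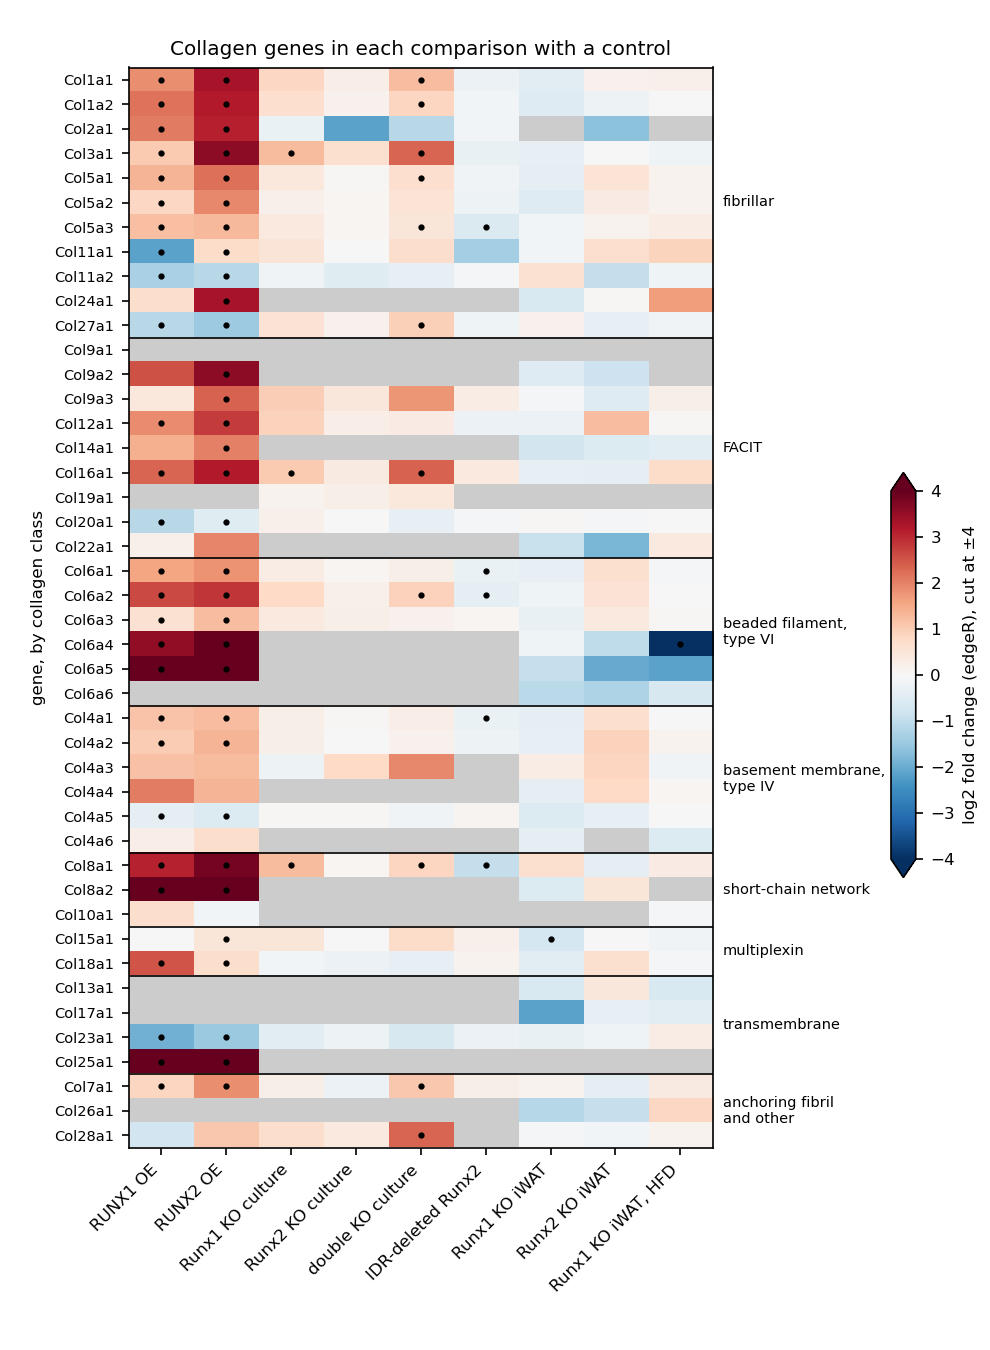
Log2 fold change of each of the 44 collagen genes (rows, by class) in each comparison with a control (columns), with color cut at 4 in both directions, grey where a gene was not tested and a dot where edgeR's adjusted p was below 0.05. Dots fill the overexpression columns, 11 stand in the double knockout column, and 5 or fewer in every other column.

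The regions upstream of the strongest responders are given because RUNX proteins bind DNA at a short core, here searched as TGTGGT and TGCGGT on both strands. RefSeq promoters (GRCm38.p6) matched 35 of the 44 symbols, in 38 windows of the 250 bases before a start site, and the 2 words were in 6 of them (15.8%), never more than once, against 6107 of 32851 windows of all genes (18.6%). Those 6 windows belong to Col8a1, Col18a1, Col4a2, Col4a4, Col17a1 and Col19a1. A match is a description of the letters and not a binding site. The windows of the collagens that were at 0 with vector (Col6a5, Col25a1), of both chains of type VIII (Col8a1, Col8a2) and of Col3a1, which was far higher with RUNX2 than with RUNX1, are printed 5′ to 3′ in lower case, with a searched word in capitals.
Col6a5 (chr9:105960644-105960893, - strand): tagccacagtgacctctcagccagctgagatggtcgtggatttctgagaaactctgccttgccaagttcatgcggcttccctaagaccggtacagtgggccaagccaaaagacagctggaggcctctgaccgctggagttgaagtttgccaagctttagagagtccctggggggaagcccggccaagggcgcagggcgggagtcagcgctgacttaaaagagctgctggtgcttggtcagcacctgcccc
Col25a1 (chr3:130180595-130180844, + strand): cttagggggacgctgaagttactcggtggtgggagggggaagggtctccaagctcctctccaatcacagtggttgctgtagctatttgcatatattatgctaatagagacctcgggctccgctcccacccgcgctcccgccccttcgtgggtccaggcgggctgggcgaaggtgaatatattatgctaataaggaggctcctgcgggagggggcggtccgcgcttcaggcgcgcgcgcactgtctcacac
Col8a1 (chr16:57754738-57754987, - strand): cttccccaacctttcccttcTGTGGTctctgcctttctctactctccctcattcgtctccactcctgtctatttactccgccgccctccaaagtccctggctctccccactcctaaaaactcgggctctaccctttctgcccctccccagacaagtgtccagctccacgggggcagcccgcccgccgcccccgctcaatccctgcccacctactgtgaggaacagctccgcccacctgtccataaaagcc
Col8a2 (chr4:126286544-126286793, + strand): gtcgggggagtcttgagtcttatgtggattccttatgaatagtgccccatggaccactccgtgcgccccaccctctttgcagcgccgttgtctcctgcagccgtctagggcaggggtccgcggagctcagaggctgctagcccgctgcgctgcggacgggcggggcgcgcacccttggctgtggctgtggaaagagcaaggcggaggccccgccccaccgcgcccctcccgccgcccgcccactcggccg
Col3a1 (chr1:45311288-45311537, + strand): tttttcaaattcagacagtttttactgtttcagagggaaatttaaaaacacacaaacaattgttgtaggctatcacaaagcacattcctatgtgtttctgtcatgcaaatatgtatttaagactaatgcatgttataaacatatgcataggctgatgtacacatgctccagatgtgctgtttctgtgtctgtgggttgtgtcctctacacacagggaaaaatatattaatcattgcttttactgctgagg
Of these windows only that of Col8a1 holds a searched word, and it starts 230 bases before the start site. Their GC content runs from 35.2% in Col3a1 to 70.0% in Col8a2.

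Among the 11 fibrillar chains, 7 rose and 3 fell with RUNX1, and 9 rose and 2 fell with RUNX2. That is 90.9% and 100% called, against 54.0% and 60.9% of all genes. Col1a1, the main chain of type I collagen, was counted at 396, 313 and 728 CPM in the vector libraries, 1886, 1739 and 1572 with RUNX1 and 4962, 4769 and 4469 with RUNX2. The 3 groups were fully separated, and vector replicate 3 was the highest of its group. The log2 fold change was 1.85 ± 0.26 (SE) with RUNX1 (adjusted p = 0.00016) and 3.30 ± 0.27 with RUNX2 (adjusted p = 2.2e-06). Its partner chain Col1a2 stood at 92.9, 70.8 and 168 with vector, 543, 516 and 451 with RUNX1 and 1012, 1011 and 961 CPM with RUNX2, a rise of 2.19 ± 0.26 and 3.17 ± 0.27 on the log2 scale.

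Col3a1, which forms the fine fibres of soft tissue, was far higher with RUNX2 than with RUNX1. It was counted at 113, 86.3 and 226 CPM with vector, 314, 286 and 274 with RUNX1 and 1823, 1619.6 and 1644 with RUNX2. Its fold change was 2.05 with RUNX1 and 11.9 with RUNX2, and the direct comparison of RUNX2 with RUNX1 gave 2.54 ± 0.30 on the log2 scale (adjusted p = 0.00022). Its call with RUNX1 was lost without vector replicate 1 (0.90, adjusted p = 0.053) and with the compared groups fitted alone (adjusted p = 0.064). Type V collagen seeds type I fibres, and its chains rose too: Col5a1 by 1.37 and 2.19, Col5a2 by 0.81 and 1.93, and Col5a3 by 1.21 and 1.30 with RUNX1 and RUNX2. Col2a1, the cartilage collagen, also rose but was low, at 3.70, 2.92 and 2.0 CPM with RUNX2.

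Col11a1, another cartilage-type fibrillar chain, was lower with RUNX1 than with vector or RUNX2. It was at 8.37, 5.70 and 12.2 CPM with vector, 2.22, 1.59 and 2.14 with RUNX1 and 10.8, 14.6 and 18.5 with RUNX2. The RUNX1 libraries lay below all others, and the vector and RUNX2 libraries overlapped. With RUNX1 it fell by 2.14 on the log2 scale (adjusted p = 0.0001), with RUNX2 it rose by 0.74 (adjusted p = 0.035), and RUNX2 exceeded RUNX1 by 2.88 ± 0.30 (adjusted p = 3.2e-05). The call with RUNX2 was lost when vector replicate 1 or 2 or RUNX2 replicate 2 or 3 was left out, and the value was 0.27 (adjusted p = 0.41) without the 3 libraries that carry cardiac transcripts, which leaves a lone vector library assumed to vary like the others. Col27a1, a fibrillar chain of cartilage, fell in both: it had 66.9, 87.8 and 70.8 CPM with vector, 31.2, 37.2 and 37.1 with RUNX1 and 27.7, 27.7 and 26.3 with RUNX2. Col11a2 fell by 1.30 and 1.09. Col24a1 rose with RUNX2 (3.28 ± 0.88) from at most 0.264 CPM.

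Of the 9 FACIT genes 7 were tested, of which 2 rose with RUNX1 and 5 with RUNX2. Calls in either direction made up 42.9% of the 7 with RUNX1 and 85.7% with RUNX2, against 54.0% and 60.9% of all genes. Col12a1, which binds type I fibres, rose from 73.7, 49.7 and 97.8 CPM with vector to 279, 251 and 293 with RUNX1 and 439, 571 and 517 with RUNX2. Col16a1 went from 7.68, 5.17 and 16.7 to 61.6, 46.9 and 39.9 and 100.3, 88.9 and 78.3. No overexpression library of either gene overlapped with vector. Col9a2, Col9a3 and Col14a1 rose with RUNX2 to between 0.406 and 2.14 CPM and did not pass with RUNX1, and Col20a1 fell by 1.10 with RUNX1 and 0.47 with RUNX2. With RUNX2, Col9a2 lost its call without the cardiac libraries (adjusted p = 0.086), Col14a1 when vector replicate 2 or 3 or RUNX2 replicate 2 or 3 was left out (adjusted p up to 0.079), and Col20a1 without the cardiac libraries, vector replicate 2 or RUNX2 replicate 2 or 3 (adjusted p up to 0.062).

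All 5 type VI genes tested rose in both groups. Col6a1 was the most abundant collagen per kilobase of transcript in every culture group, at 416 ± 59.4 CPM per kb (SD, n = 3) with vector, 1239 ± 18.2 with RUNX1 and 1443 ± 71.0 with RUNX2. Its counts were 1505, 1639.7 and 1977 CPM with vector, 5159.9, 5069 and 5014 with RUNX1 and 6241, 5825 and 5680.4 with RUNX2, a log2 fold change of 1.57 ± 0.11 and 1.79 ± 0.11. Col6a2 rose more, from 499, 476 and 776 to 3849.6, 3769 and 3369.8 and 4663, 4114 and 4035 CPM (2.65 ± 0.17 and 2.87 ± 0.18). Col6a3, which carries endotrophin at its end, rose least of the 3 main chains (0.61 ± 0.13 and 1.23 ± 0.13).

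Col6a5 went from no counts to a well-measured gene. It had 0 counts in all vector libraries, 10.7, 11.5 and 12.6 CPM with RUNX1 and 63.3, 78.4 and 66.4 with RUNX2. Against a floor of 3 counts over the vector group, RUNX1 libraries were at least 385-fold higher and RUNX2 libraries at least 2299-fold higher. The RUNX2 libraries exceeded the RUNX1 libraries by 2.58 ± 0.13 on the log2 scale (adjusted p = 1.1e-06). The neighbouring member Col6a4 rose to at most 0.843 CPM, and its call with RUNX1 was lost without the cardiac libraries (adjusted p = 0.099). Col6a6 had too few counts to be tested.

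Of the 6 type IV basement membrane chains 2 rose, 1 fell and 3 did not pass in either comparison. The called share was 50% in both, below the 54.0% and 60.9% of all genes. Col4a1 was at 1058, 1033 and 1154 CPM with vector, 2331, 2368 and 2506 with RUNX1 and 2439.5, 2529.8 and 2664 with RUNX2, and Col4a2 at 670.1, 716 and 742, 1410.2, 1424 and 1469.9 and 1823, 1767 and 1817. The log2 fold change was 1.15 ± 0.09 and 1.23 ± 0.09 for Col4a1 and 1.02 ± 0.08 and 1.35 ± 0.08 for Col4a2, which lie head to head with start sites 21 bases apart. Col4a5, a chain of a different type IV network, fell (-0.40 ± 0.11 and -0.54 ± 0.11), and Col4a3, Col4a4 and Col4a6 were below 0.9 CPM in every library and did not pass.

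The short-chain collagens of type VIII, made by vessel walls and activated fibroblasts, rose steeply. Col8a1 went from 15.7, 11.6 and 23.2 CPM with vector to 139.7, 138 and 147 with RUNX1 and 208, 259.6 and 258 with RUNX2, which is 8.38-fold and 14.3-fold. Col8a2 went from 0.198, 0 and 0.1 to 1.84, 2.08 and 1.07 and 4.20, 3.34 and 3.77. Col10a1, the collagen of hypertrophic cartilage and a known RUNX2 target there, was at 0.461, 0.403 and 0.45 CPM with vector, 0.826, 0.734 and 0.587 with RUNX1 and 0.218, 0.506 and 0.499 with RUNX2, and it passed in neither comparison.

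Of the basement membrane multiplexins, Col18a1, the source of endostatin, was higher with RUNX1 than with RUNX2. Its vector libraries had 39.9, 37.6 and 45.3 CPM, its RUNX1 libraries 261, 252 and 191 and its RUNX2 libraries 70.6, 62.6 and 66.4. RUNX2 was below RUNX1 by 1.82 ± 0.13 on the log2 scale (adjusted p = 1.9e-06). Col15a1 was at 130.0, 117 and 194 CPM with vector and 149, 126 and 167 with RUNX1, which overlap, and it rose with RUNX2 by 0.49 ± 0.17 (adjusted p = 0.027), a call lost without the cardiac libraries (0.09, adjusted p = 0.57) and without vector replicate 1 or 2 or RUNX2 replicate 1 or 3.

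Among transmembrane collagens the tested pair moved apart. Col25a1, known as the amyloid-binding CLAC precursor of neurons, had 0 counts with vector, 0.229, 1.09 and 1.12 CPM with RUNX1 and 4.44, 5.62 and 5.82 with RUNX2, at least 26-fold and at least 179-fold above the floor. Col23a1 fell from 2.24, 3.12 and 1.98 CPM to 0.757, 0.354 and 0.828 and 0.844, 1.26 and 0.517, and its call with RUNX2 was lost without vector replicate 2, RUNX2 replicate 1 or 3, or the cardiac libraries (adjusted p up to 0.087). Col7a1, the anchoring fibril of skin, rose by 0.85 ± 0.24 and 1.85 ± 0.25, and its call with RUNX1 was lost without RUNX1 replicate 1 (adjusted p = 0.066).

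**Figure D3:**
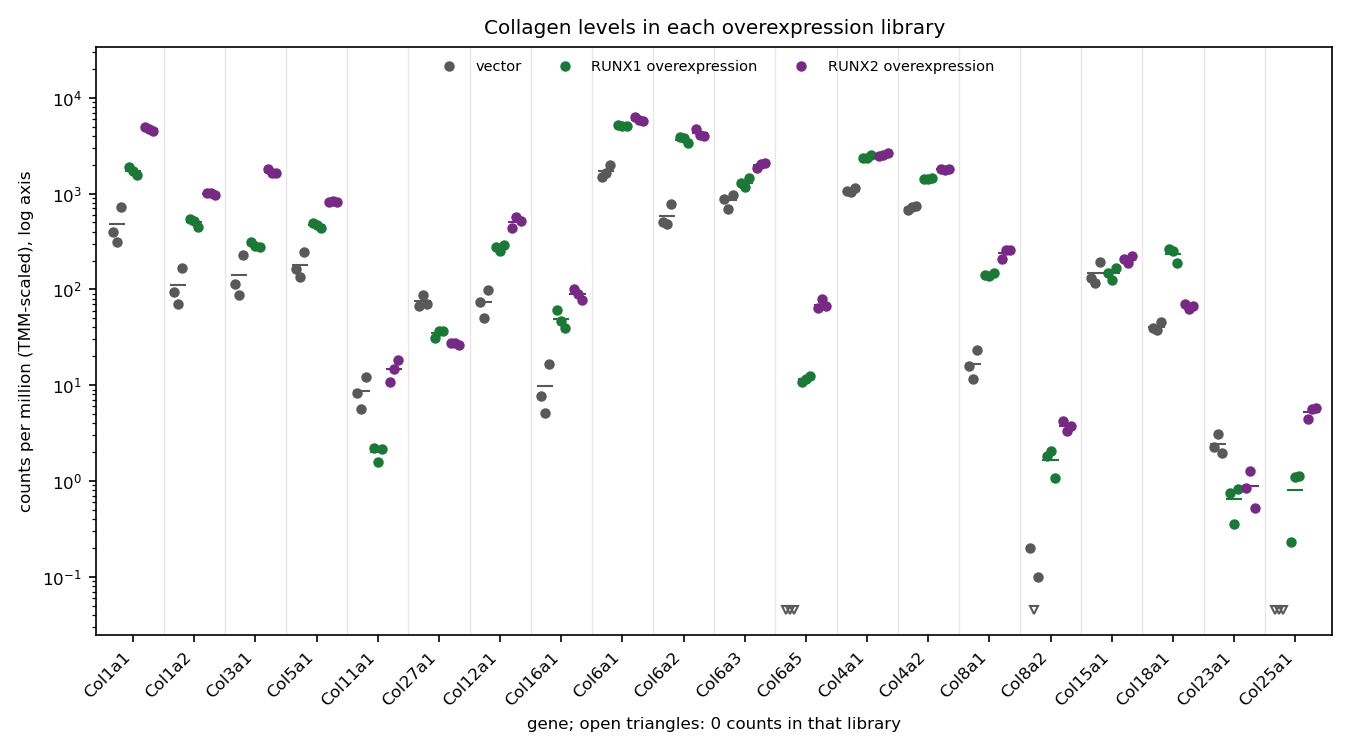
CPM (y axis, log scale) of 20 collagen genes (x axis) in each vector, RUNX1 and RUNX2 overexpression library, with 1 point per library, a line at the group mean where every library is above 0, and open triangles for libraries at 0 counts. Col6a5 and Col25a1 are at 0 in every vector library, Col11a1 lies below vector with RUNX1 alone, and Col18a1 is highest with RUNX1.

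Set directly against each other, RUNX2 libraries exceeded RUNX1 libraries in 18 collagens and were lower in 2, Col18a1 and Col27a1, where 39.9% of all genes tested were called, 18.9% higher and 21.0% lower. By class, 7 of 11 fibrillar genes were higher with RUNX2 against 2 of 5 of type VI and 1 of 6 of type IV. Col6a1 and Col6a2 differed by 0.22 ± 0.11 and 0.22 ± 0.16, Col4a1 by 0.08 ± 0.08 and Col5a3 by 0.10 ± 0.12, none of which passed. Without the 3 cardiac libraries 21 were higher and the same number, 2, were lower. The lower call of Col27a1 was lost with no count filter and when RUNX1 replicate 2 or any RUNX2 library was left out (adjusted p up to 0.097).

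Ratios between chains, taken per kilobase of transcript, also differed between these groups. Within type VI, Col6a2 was 0.256 to 0.346 of Col6a1 with vector, 0.592 to 0.657 with RUNX1 and 0.622 to 0.658 with RUNX2. Col6a3 was 0.172 to 0.234 of Col6a1 with vector, 0.093 to 0.117 with RUNX1 and 0.121 to 0.150 with RUNX2. Within type I, Col1a1 was 3.84 to 3.99 times Col1a2 with vector, 3.04 to 3.15 times with RUNX1 and 4.19 to 4.42 times with RUNX2. Between the different proteins of types III and I, Col3a1 was 0.294 to 0.331 of Col1a1 with vector, 0.175 to 0.186 with RUNX1 and 0.362 to 0.392 with RUNX2. None of these 4 ratios overlapped between an overexpressed group and vector (exact two-sided permutation p = 0.1, the smallest possible). Within type IV, Col4a2 over Col4a1 was 0.649 to 0.711 with vector and 0.601 to 0.620 with RUNX1, again without overlap (p = 0.1 by the same exact test), and 0.700 to 0.766 with RUNX2, which overlapped with vector (exact p = 0.2).

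**Figure D4:**
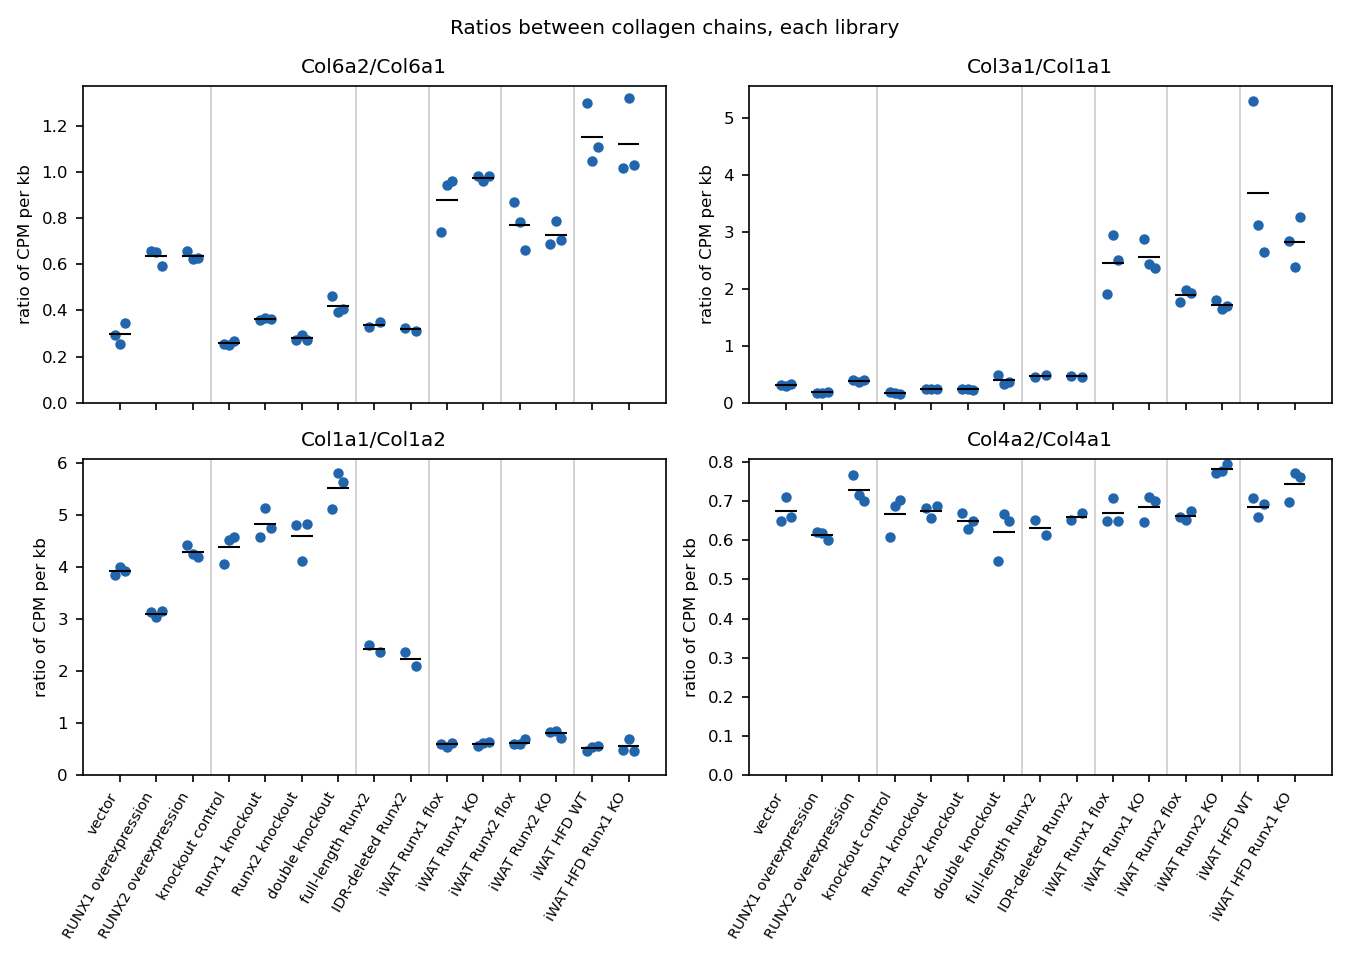
Ratio of 2 collagen chains, each in CPM per kilobase of its longest coding transcript (y axis), in each library of every group (x axis), with 1 point per library, lines at group means and grey lines between count tables. Col6a2/Col6a1 is 0.592 or more in both overexpressed groups against at most 0.346 with vector, and Col1a1/Col1a2 is above 2 in every culture and below 1 in every iWAT library.

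Enzymes that make and process collagen did not move as a block. Of 34 tested genes for collagen synthesis and cross-linking, 19 rose and 7 fell with RUNX1 and 23 rose and 5 fell with RUNX2, or 76.5% and 82.4% called against 54.0% and 60.9% of all genes. Hydroxylases that modify collagen chains were among those that fell: P4ha1, a prolyl 4-hydroxylase, had a log2 fold change of -2.19 and -1.45, P4ha2 of -1.27 and -0.44, and the lysyl hydroxylase Plod1 of -1.56 and -1.47. Among those that rose were Bmp1, which cuts the end propeptide (1.87 and 2.31), Pcolce2, its enhancer (2.63 and 2.11), the fibre-binding proteoglycan Fmod (7.19 and 5.52) and the secretory-pathway regulator Creb3l1 (1.86 and 2.30).

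Of 17 tested genes for collagen breakdown, 12 rose and 1 fell with RUNX1, and 15 rose and none fell with RUNX2, where 28.2% and 31.3% of all genes rose. Their median log2 fold change was 1.19 and 1.40. The genes that rose included both proteases and their inhibitors: Mmp2, a gelatinase, by 2.01 and 5.97, Mmp14, which activates it, by 2.91 and 4.28, and the inhibitors Timp2 by 3.41 and 4.07 and Timp3 by 2.84 and 3.31. Of the collagen receptors, 1 was higher (Itgb1) and 1 lower (Cspg4) of 8 with RUNX1, and 2 were higher and 3 lower with RUNX2. Among 17 TGF-beta genes, which drive collagen in fibroblasts, 7 rose and 4 fell with RUNX1 and 10 rose and 3 fell with RUNX2. Those are 64.7% and 76.5% called, near the 54.0% and 60.9% of all genes, with medians of 0.04 and 0.60. Inhba rose by 4.60 and 4.41 and Tgfb3 by 2.09 and 2.58, while the receptor Tgfbr2 fell by 1.66 and 0.96.

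Markers of other cell types moved with these collagens. The 10 stromal progenitor markers summed to 80.2 to 118.5 CPM with vector, 320 to 355 with RUNX1 and 571 to 615 with RUNX2, with at most 4 markers at 0 in a library. The 6 smooth muscle and pericyte markers summed to 142 to 151, 914 to 1175 and 896 to 1109. The 8 brown adipocyte markers summed to 325 to 401 with vector, 31.7 to 72.3 with RUNX1 and 27.9 to 37.4 with RUNX2, with at most 1 at 0. The adipocyte markers stood at 9134 to 9871, 7825 to 9639 and 4370 to 5266, and the Schwann cell markers at 13.9 to 14.7, 12.1 to 33.3 and 34.4 to 36.2. Their part in the collagen result was not tested.

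In the knockout cultures every collagen that edgeR called against the control was higher, with most calls in the double knockout. In the cultures labelled Runx1 knockout, 3 of 28 tested collagens rose and none fell, where 0.435% of all 13551 genes were called, 0.406% higher and 0.0295% lower. They were Col3a1 (1.27 ± 0.23), Col8a1 (1.27 ± 0.24) and Col16a1 (1.06 ± 0.16). Col3a1 was at 95.7, 47.3 and 59.0 CPM in the control and 149.6, 163 and 175 in the knockout, and Col8a1 at 7.97, 4.99 and 6.53 and 14.4, 19.2 and 13.2, with no overlap. Leaving out any single library of either group gave 0 to 2, with 0 without control replicate 2 or 3 or knockout replicate 2 or 3.

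In the cultures labelled Runx2 knockout no collagen passed edgeR's test, where 0.184% of all genes were called (0.177% higher and 0.00738% lower), although 4 had an unadjusted p below 0.05. DESeq2 called 1, lower. Col2a1 had the lowest value, at 1.36, 0.843 and 1.20 CPM in the control and 0.325, 0.177 and 0.27 in the knockout (-2.13 ± 0.40, edgeR's adjusted p = 0.061). The median over the 28 was 0.09, against 0.38 in the Runx1 knockout, and both use the same control libraries.

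In the double knockout 11 of the 28 rose and none fell, where 15.3% of all genes were called, 8.27% higher and 7.01% lower. Col16a1 rose most, from 4.63, 4.66 and 3.55 CPM in the control to 21.9, 22.5 and 21.0, with 7.27, 9.92 and 9.62 in the Runx1 knockout and 6.11, 5.15 and 5.34 in the Runx2 knockout. The double knockout exceeded each of the other groups without overlap, by 2.35 ± 0.17 against the control (adjusted p = 9e-06). Col3a1 was at 258, 359.5 and 392 CPM in the double knockout, also above every library of the other 3 groups (2.32 ± 0.24). Col28a1, a minor collagen of nerve sheath, rose from 0.431, 0.481 and 0.542 to 0.907, 2.67 and 3.76 CPM. The 5 Schwann cell markers summed to 7.40 to 12.1 CPM in the control and 24.4 to 42.7 in the double knockout, with at most 2 at 0 in a library, and their part in this result was not tested.

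Type I collagen followed with a smaller change: Col1a1 was at 522, 295 and 404 CPM in the control and 576, 1148 and 1160.0 in the double knockout (1.24 ± 0.25, adjusted p = 0.007). The other calls were Col7a1 (1.08), Col27a1 (0.96), Col6a2 (0.92), Col1a2 (0.87), Col8a1 (0.86), Col5a1 (0.68) and Col5a3 (0.50). Of these 11 genes 9 were also called higher with both overexpressed proteins, Col28a1 passed with neither, and Col27a1 was lower with both. In the overexpression cultures 21 of 38 tested collagens were called higher with both, and whether 9 of 11 exceeds that share was not tested. Col6a1, Col6a3, Col4a1, Col4a2 and Col15a1, abundant in these cells, did not pass in the double knockout. The count of calls depended on double knockout replicate 1. Without it 18 collagens were higher and 1 lower, Col4a1 by 0.53, Col6a1 by 0.56 and Col15a1 by 1.05 higher among them. The share of all genes called without that library was not taken. Leaving out control replicate 2 or 3 gave 5 or 6 calls, and double knockout replicate 2 or 3 gave 6 or 7. Col16a1, Col3a1 and Col27a1 were called in each of the 11 alternatives, Col1a1 and Col28a1 in 10, and the other 6 in 4 to 7.

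**Figure D5:**
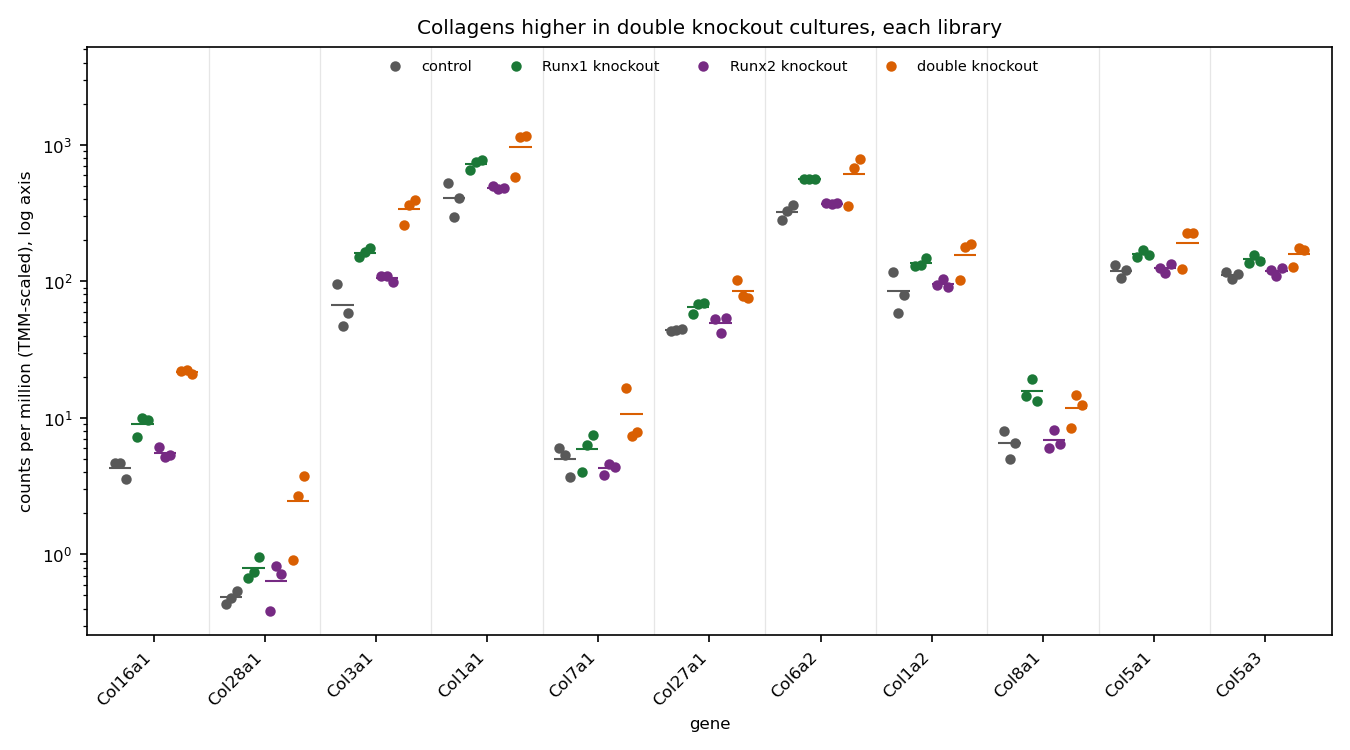
CPM (y axis, log scale) of the 11 collagens called higher in the double knockout (x axis, from the highest to the lowest log2 fold change) in each control, Runx1 knockout, Runx2 knockout and double knockout library, with 1 point per library and a line at the group mean. Col16a1 and Col3a1 separate the double knockout from every other library, whereas its replicate 1 falls back toward the control for Col1a1, Col1a2, Col6a2, Col5a1 and Col5a3.

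Against the single knockouts, which share libraries with the comparisons above, the double knockout was higher in 2 collagens over the Runx1 knockout (6.44% of all genes called, 3.42% higher and 3.03% lower) and in 6 over the Runx2 knockout (5.52%, 3.06% higher and 2.46% lower), and lower in none. Both held Col16a1 (1.29 ± 0.16 and 1.98 ± 0.16) and Col3a1 (1.05 ± 0.23 and 1.67 ± 0.23). Without double knockout replicate 1 the counts were 9 and 17, without any single Runx1 knockout library or double knockout replicate 2 the first was 1, and without any single Runx2 knockout library the other was 2 or 3. Per kilobase, Col6a2 over Col6a1 was 0.251 to 0.267 in the control, 0.358 to 0.366 in the Runx1 knockout, 0.270 to 0.295 in the Runx2 knockout and 0.392 to 0.464 in the double knockout, which includes replicate 1.

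In the double knockout, where 8.27% of all genes rose, 9 of 33 synthesis and cross-linking genes rose, 24 did not pass and the median was 0.19. Among those that rose were Pcolce (1.28), Adamts2, which trims the other end of the procollagen (1.96), Pcolce2 (1.20) and Bmp1 (0.66). Of 12 breakdown genes 5 rose and 7 did not pass, with a median of 0.59, and those that rose included Timp2 (1.70), Mmp2 (1.71) and Timp1 (1.84). No receptor of 8 passed. Of 17 TGF-beta genes 2 rose and 1, Smad4, fell. In the Runx1 knockout Adamts2 (1.19), Pcolce (0.57), Mmp2 (1.71) and Timp2 (0.99) rose. The stromal progenitor markers summed to 66.2 to 77.3 CPM in the control and 78.1 to 82.7 in the Runx1 knockout. In the double knockout they summed to 60.6 to 100.6, which overlapped with the control. Within that list Dlk1 and Ly6a rose by 3.55 and 3.21 in the double knockout. Its other members are given only in the sums, which overlapped, so these 2 do not stand for the list. The part of these markers in the collagen result was not tested.

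Cultures whose Runx2 lacked the IDR had slightly less of several collagens, and the 44 genes took 0.488% and 0.526% of counts against 0.574% and 0.624%. Compared with full-length Runx2, 5 of 25 tested collagens fell and none rose, where 3.91% of all 13110 genes were called, 1.51% higher and 2.40% lower. Col5a3 was at 131 and 172 CPM with full-length Runx2 and 101 and 100.4 with the deletion (-0.59 ± 0.10, adjusted p = 0.00046). Col6a2 went from 735 and 819 to 608 and 605 (-0.36 ± 0.07), Col6a1 from 1977 and 2066 to 1646 and 1713 (-0.27 ± 0.07), Col4a1 from 1011 and 1149 to 825 and 953 (-0.28 ± 0.08) and Col8a1 from 3.24 and 3.93 to 1.60 and 2.11 (-0.95 ± 0.29). The groups did not overlap for any of the 5, and with 2 libraries each no exact test can go below p = 0.33. All 10 tested fibrillar genes had a value below 0, as did 18 of the 25 tested collagens, but Col5a3 alone of the 10 passed. The fibrillar median was -0.18, against -0.17 over the 25 and 0.002 over all genes tested. The authors' deposited list of changed genes for this comparison holds 3 collagens among 341 genes. They are Col5a3 at -0.59, Col6a2 at -0.36 and Col6a1 at -0.27 on the log2 scale. That list also has a fold cutoff, but Col4a1 (-0.28) and Col8a1 (-0.95), which it lacks, changed here by no less than Col6a1 (-0.27). Why they are absent from it was not tested.

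Runx2 counts themselves were lower with the deletion (-1.19, edgeR's adjusted p = 7.3e-12), with 293 and 294 CPM in the full-length and 115 and 143 in the deleted cultures. Counts over a whole gene do not separate a missing stretch of sequence from less mRNA. The amount and the form of Runx2 therefore cannot be told apart. The call count was 1 without full-length replicate 2 and 3 without deleted replicate 1, where the lone library left is assumed to vary like the other group, and DESeq2 did not call Col8a1 (adjusted p = 0.21). The stromal progenitor markers summed to 42.1 to 43.5 CPM and 36.8 to 37.0, and their part was not tested. Of 30 synthesis and cross-linking genes 4 rose, 1 fell and 25 did not pass, and of 13 breakdown genes 1 rose and 4 fell, where 1.51% of all genes rose and 2.40% fell. All 4 that rose on the synthesis list are collagen hydroxylases: P4ha2 rose by 1.00, P4ha1 by 0.83, Plod2 by 0.69 and Plod1 by 0.37, while the collagenase Mmp13 fell by 4.30 and Loxl1 by 0.51.

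In inguinal fat, at most 1 collagen per comparison passed edgeR's test, and in the Runx2 table that count rested on 1 library. Per kilobase, Col3a1 and Col4a1 were the highest collagens of Runx1 flox iWAT, at 182 ± 42.6 and 144 ± 21.4 CPM per kb (SD, n = 3). In Adipoq-cre:Runx1 KO iWAT 1 of 39 tested collagens fell and none rose, where 7.48% of all 15896 genes were called, 4.45% higher and 3.03% lower. It was Col15a1, a multiplexin of the basement membrane of fat and muscle, at 148, 145 and 135 CPM with flox and 82.6, 83.9 and 96.6 with the knockout (-0.70 ± 0.12, adjusted p = 0.011). Over the 39 genes 33 had a value below 0, with a median of -0.35 against 0.00 over all genes, but only Col15a1 passed. Col1a1, for example, was at 705, 361 and 335 CPM and 255, 302 and 462, which overlap.

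The number of calls was 2 without flox replicate 2 or 3. The Col15a1 call was lost without knockout replicate 2 (adjusted p = 0.087) and without the 3 libraries that hold skeletal muscle transcripts (-0.77, adjusted p = 0.15), which leaves a lone knockout library. Endothelial markers summed to 970 to 1451 CPM with flox and 619 to 882 with the knockout, and their part in the Col15a1 result was not tested. Of the 35 tested synthesis genes P4ha1 (1.07) and Serpinh1, the collagen chaperone (0.71), rose, and of the 17 TGF-beta genes Ccn2 (-1.24), Tgfbr3 (-0.87) and Smad3 (-0.85) fell. Among breakdown genes and receptors Mmp19 (0.71) and Ddr1, a collagen-binding kinase (0.87), rose and Timp3 (-0.85) fell. The called share was 5.71% for synthesis, 11.8% for breakdown, 10% for receptor and 17.6% for TGF-beta genes, against 7.48% for all genes.

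In Adipoq-cre:Runx2 KO iWAT no collagen of 39 passed edgeR's test, nor did any gene in the table (0% called), while 6 collagens had an unadjusted p below 0.05 and DESeq2 called 1, higher. Flox replicate 3 decided this count: without it 13 collagens were called, 9 higher and 4 lower. The share of all genes called without that library was not taken, so the 13 cannot be set beside it. Col4a1 was at 392, 625 and 1054 CPM with flox and 1142, 1145 and 1034 with the knockout, so that flox replicate 3 lay within the knockout range. Col4a2 was at 252, 396 and 692 and 858, 866 and 801, and without that library it rose by 1.38 (adjusted p = 0.0015) and Col4a1 by 1.13 (adjusted p = 0.0043). B cell markers summed to 1547 and 1535 CPM in flox replicates 1 and 2, 263 in replicate 3 and 224 to 498 in the knockout, while adipocyte markers summed to 23620 and 25530, 57530, and 53910 to 67650, so that the make-up of the samples and the genotype cannot be told apart. Per kilobase, Col4a2 over Col4a1 was 0.650 to 0.674 with flox and 0.771 to 0.795 with the knockout, and Col1a1 over Col1a2 was 0.600 to 0.689 and 0.725 to 0.853, both without overlap (exact two-sided permutation p = 0.1, the smallest possible). The other ratios taken, Col6a2 and Col6a3 to Col6a1, Col3a1 to Col1a1 and Col5a2 to Col5a1, overlapped (p = 0.2 to 0.7 by the same exact test).

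In iWAT with the HFD label, 1 of 38 tested collagens fell with Runx1 knockout and none rose, where 2.11% of all 15058 genes were called, 0.0465% higher and 2.07% lower. Col6a4, a type VI chain, was at 0.676, 4.47 and 2.95 CPM in WT and 0.13, 0 and 0 in the knockout (-5.67 ± 1.05, adjusted p = 0.015). The authors' deposited list of changed genes, which also has a fold cutoff, gives it at -5.79, the sole collagen among 403 genes. B cell markers summed to 161 to 353 CPM in WT and 2.15 to 3.34 in the knockout, and T cell markers to 83.1 to 230 and 4.59 to 18.8, and their part in this result was not tested. The call was lost without WT replicate 3 (adjusted p = 0.065) and without knockout replicate 3 (adjusted p = 0.055). Knockout replicate 2 had the highest collagen levels, with Col1a1 at 285, 868 and 196 CPM in the knockout against 240.2, 406 and 534 in WT, and without it Col15a1 was also called, lower by 1.17 (adjusted p = 0.045).

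The effect of Runx1 knockout was also compared between the tables with and without the HFD label, in a single edgeR fit. Of 40 tested collagens 1 was called, lower, where 4.40% of all genes were called, 1.10% higher and 3.30% lower. It was Col6a4 (-5.49 ± 1.06, adjusted p = 0.013), at 12.6, 10.4 and 21.5 CPM with Runx1 flox and 11.7, 13.2 and 14.7 with the knockout in the table without the label, which overlap. Its level in WT iWAT with the HFD label lay below every library of that table.

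Chain ratios differed between the cultures and fat. Col1a1 per kilobase was 2.10 to 5.81 times Col1a2 in the culture libraries and 0.466 to 0.853 times in the iWAT libraries, and the ratio of Col4a2 to Col4a1 lay between 0.547 and 0.795 in all 43. Col3a1 over Col1a1 was at most 0.494 in the cultures and at least 1.64 in iWAT. These ratios are within a library, the counts come from separate tables, and transcript lengths are those of GENCODE M21.

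The remaining members were counted rarely or not at all. Col13a1, Col17a1, Col19a1, Col26a1, Col6a6 and Col9a1 were too low to be tested in the overexpression table, and none of them exceeded 0.5 CPM in any of its libraries. In the knockout cultures 16 members were not tested, and in the IDR comparison 19 members, of which 8 had 0 counts in all 4 of its libraries. In iWAT 5 or 6 per table were not tested. Col9a3 and Col4a3 share 6.07% and 5.65% of their exon length with another gene, and because strand-specific counting is not stated, reads there cannot be told apart. No library duplicated another.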

How the data were processed

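Gene-level RNA-seq was deposited for 43 libraries in 6 count tables of 26264 symbols each. Per the submitters' processing notes, fastp, STAR, featureCounts and mm39 were used; their versions and the strand setting are not given in the sources used here. The deposited values are raw counts per gene, and 10 further per-sample columns that match no sample were not used. The authors also deposited lists of changed genes for 2 comparisons with log2 fold changes and adjusted p-values. The collagens on these lists are quoted with their log2 fold changes.

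Samples were grouped by their labels. Each table was fitted with all of its groups in edgeR 4.0.16 (R 4.3.3; filterByExpr, TMM, robust quasi-likelihood test), with Benjamini-Hochberg adjustment over all genes tested and a threshold of 0.05. CPM are TMM-scaled, and SE is the log2 fold change divided by the square root of F. Folds against a group at 0 used a floor of 3 counts over the group; counting error alone is covered. The pipeline was tested on simulated data. Single values used exact permutation tests. Per-kilobase levels used the longest coding transcript of GENCODE M21. Promoters are from RefSeq GRCm38.p6, a different build from the counts, so positions and counts were never joined. Figures used matplotlib 3.10.9 (Python 3.11.15).

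The members and lists were chosen with earlier results of these data known. Any collagen could be named; from each related list, up to 4 called genes of lowest adjusted p per direction were named in comparisons with a control. Alternatives were DESeq2 1.42.0, its size factors, no count filter, the compared groups alone, a replicate block, each replicate left out, and libraries with cardiac or skeletal muscle transcripts left out, the last chosen after seeing the data. Libraries held 28092201 to 52171378 counts.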

Additional observations from a re-analysis of the deposited data

Results flagged for a closer look

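The effect of Runx1 knockout on Col6a4 differed between iWAT with and without the HFD label. In an edgeR fit of both tables together, the HFD effect minus the other effect was -5.49 ± 1.06 (SE) on the log2 scale (adjusted p = 0.013), and Col6a4 was the only one of 40 tested collagens called. Without the label, Col6a4 was at 12.6, 10.4 and 21.5 CPM with flox and 11.7, 13.2 and 14.7 with the knockout, which overlap. The call was lost with the replicate block (-5.22, adjusted p = 0.062) and without the 3 libraries that hold skeletal muscle transcripts (-5.08, adjusted p = 0.17). The tables differ in control genotype and in leukocyte markers, so diet label, table and sample make-up cannot be told apart.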

How the results depend on the processing

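Shares of all genes called were taken for the main fits alone. Counts of called collagens moved by more than 1.5 times as follows. With DESeq2 the Runx1 knockout cultures had 5, the Runx2 knockout cultures 1, the double knockout 4 against the Runx1 knockout and 10 against the Runx2 knockout, Runx1 knockout iWAT 3 and Runx2 knockout iWAT 1. With the compared groups fitted alone the Runx1 knockout had 9, the double knockout 3, and 0 and 2 against the single knockouts. With no count filter Runx1 knockout iWAT had 3. Without the skeletal muscle libraries, it and the contrast of HFD with other iWAT had 0. The cause was not tested.

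Same-number correlations of deviations ran from -0.265 to 0.413 over the tables. All 3 were positive in Runx2 knockout and flox iWAT (0.026 to 0.413) and all 3 negative with the HFD label (-0.214 to -0.076). With 2 or 3 libraries per group and no design in the labels, these values cannot show whether replicate numbers paired the libraries. With the replicate block, the count was 1 in the Runx1 knockout cultures, 0 with the HFD label and 0 in the contrast of HFD with other iWAT, and it was 27, 32 and 19 in the overexpression comparisons, 8 in the double knockout, 3 and 4 against the single knockouts, 6 for the IDR, 1 in Runx1 knockout iWAT and 0 in Runx2 knockout iWAT.

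Leaving out 1 library gave 26 to 28 calls for RUNX1, 27 to 31 for RUNX2 and 15 to 20 between them. It gave 0 to 2 in the Runx1 knockout, 0 in the Runx2 knockout, 5 to 19 in the double knockout, and 1 to 9 and 2 to 17 against the single knockouts. It gave 1 to 7 for the IDR, 0 to 2 in Runx1 knockout iWAT, 0 to 13 in Runx2 knockout iWAT, 0 to 2 with the HFD label and 1 in the contrast of HFD with other iWAT. Without the 3 cardiac libraries, RUNX1 had 28 calls and RUNX2 28, and Col15a1 turned to -0.49 with RUNX1 (adjusted p = 0.0092) from 0.01. Single genes were scored only if called in the main fit or part of a fixed set that includes Col1a1, Col3a1 and Col6a1. Of these values under all alternatives, 2308 kept their call or stayed uncalled, 144 lost the call and 37 gained it. Other members uncalled in the main fit were not scored, so calls that they gained are not among the 37. A further 1, uncalled in the main fit, was called with the opposite sign. For values that stayed uncalled, no statement on direction is made.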

Other observations

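The cultures labelled full-length Runx2 had 293 and 294 CPM of Runx2 mRNA, within the range of the RUNX2 overexpression cultures (281, 332 and 313), and 0 counts of Col6a5 and Col25a1 in both libraries. Their Col1a1 was at 57.8 and 71.2 CPM. The tables were made separately and the full-length cultures have no vector control here, so these are values with no comparison.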
